A study of Drosophila melanogaster with 3 samples.

Results

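The insulin and TOR pathway genes described here are InR, Pi3K21B, Akt, foxo, Tor, Thor, scyl, chrb, REPTOR and Sik3. They were chosen by name, 10 of the 13945 protein-coding genes on the 6 main arms of the dm6 genome. For each gene, every peak that overlapped its span plus 10 kb on either side (its window) was taken from each replicate's thresholded peak list, whether at a promoter or distal. Tor is written mTor in the annotation and is not the gene torso.

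Aef1, a zinc finger protein that binds CAACAA repeats, was mapped by chromatin immunoprecipitation and sequencing (ChIP-seq) with an antibody against GFP, per the description in the labels, while their antibody field names Aef1. The material was whole Drosophila melanogaster embryos of 0 to 24 h from a strain with an Aef1-eGFP insertion, so cell types and stages within the collection were not resolved. The samples were 3 biological replicates in a single group, and the promoter that drives the insertion is not given in the sources used here. No untagged or input sample was analysed, so no test between conditions was possible, and the main counts below stand beside the share of all genes or regions that met the same rule.

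Insulin-like peptides bind InR, a receptor tyrosine kinase, and PI3-kinase and Akt carry the signal onward. Akt keeps the transcription factor foxo out of the nucleus, and signalling with nutrient input reaches TORC1, the growth-promoting complex built on Tor. TORC1 in turn restrains the translation inhibitor Thor and the transcription factor REPTOR, while scyl and chrb hold TORC1 back.

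The lists held 3495, 3126 and 2942 peaks in replicates 1, 2 and 3, and the read depth behind them is unknown. Overlapping peaks (1 bp or more) were joined into 4290 regions. A region with a peak in all 3 replicates is called shared, and there were 2081. The strength of a peak is given as its rank by the authors' signal within its own list, and as a rank percent, where values near 0 mark the strongest peaks. Signal is on a scale that the sources do not state and was not compared between replicates.

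Aef1-eGFP regions lay in the windows of all 10 genes. Replicates 1, 2 and 3 held 27, 22 and 22 peaks in these windows, a mean of 23.7 ± 2.89 (SD, n = 3). Joined across replicates they made 31 regions, with 8 found in 1 replicate, 8 in 2 and 15 in 3. A shared region was present for 9 of the 10 genes, all but Thor, against 42.4% of all genes and 46.2% of genes with windows of 21.2 to 69.1 kb, the length range of the 10. With a peak in any replicate, all 10 had a region, against 62.8% of all genes. Shared regions in the 10 windows came to 4.14 per 100 kb, against 2.75 in the windows of all genes in that length range and 1.55 over the arms. The genes were listed with earlier results of these data known, so these shares describe the chosen set only.

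**Figure D1:**
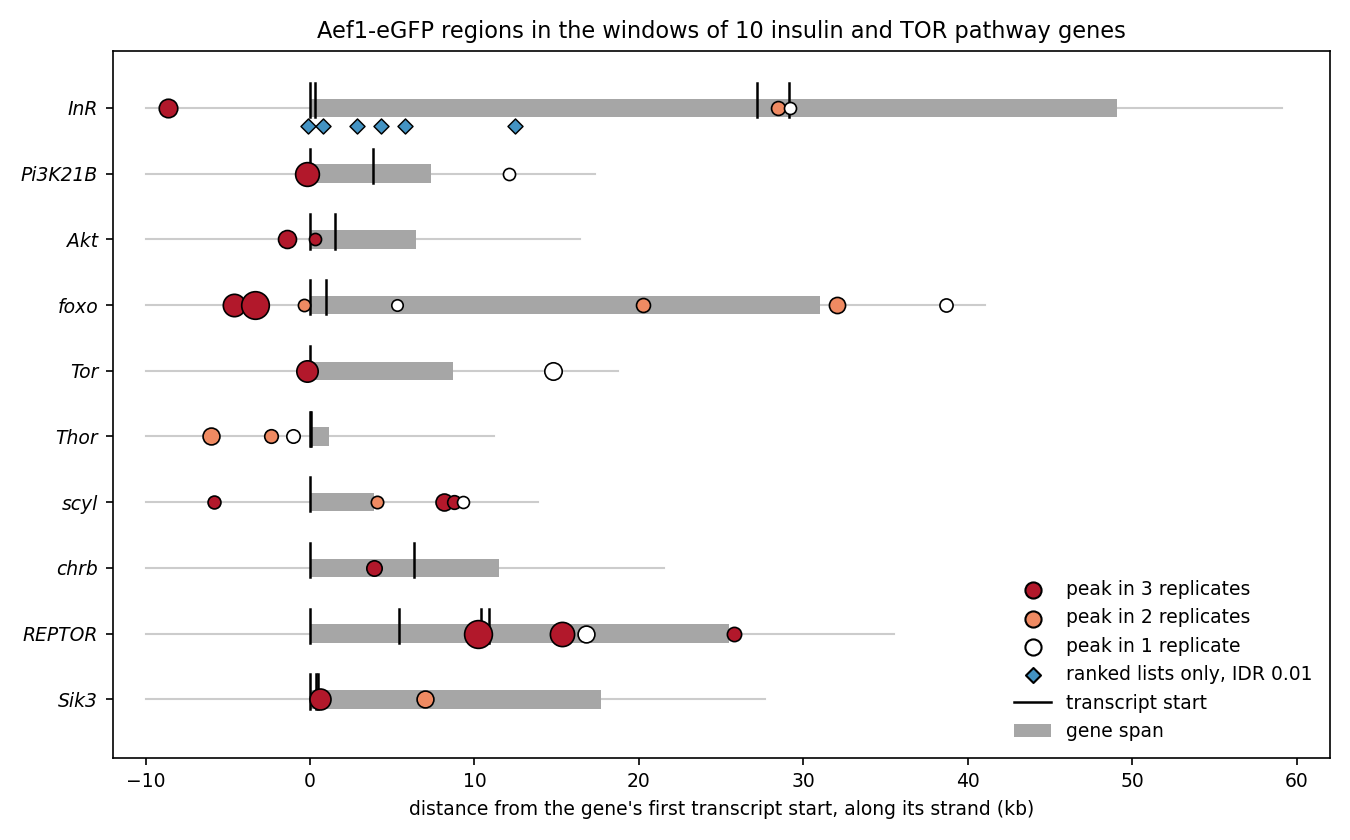
Each row shows 1 gene, with its span as a grey bar, its annotated transcript starts as black ticks and its window as a thin line, and the horizontal axis gives the distance from the gene's first start along its strand in kb. Circles mark the 31 regions by the number of replicates with a peak, a larger circle has a stronger mean rank, and blue diamonds mark InR peaks that stood only in the ranked lists. Shared regions at an own start were drawn for Pi3K21B, Akt, Tor, REPTOR and Sik3, and no shared region was drawn for Thor.

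At an own transcript start, meaning a region summit within 500 bp of a start of the same gene, 5 of the 10 genes had a shared region, namely Pi3K21B, Akt, Tor, REPTOR and Sik3. All genes met this rule at 11.3%, and the exact Clopper-Pearson 95% interval on the share of the 10 ran from 18.7 to 81.3%. As the 10 genes were chosen and not drawn at random, the interval cannot show a share above that of all genes. The 10 have 23 annotated starts, against 19607 for the 13945 genes, and these shares were not matched for the number of starts. Counting a peak in any replicate added InR and foxo, giving 7 of 10 against 19.6% of all genes. The other 10 of the 15 shared regions divided into 2 inside a gene away from its starts, 5 upstream and 3 downstream. By the nearest protein-coding start of any gene, 5 of the 15 were at promoters, with 4 in introns and 6 between genes. The promoter share was 33.3%, with an exact 95% interval of 11.8 to 61.6%, which includes the 54.9% of all shared regions.

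The sequences that follow are region summits with 50 bp on either side in the RefSeq dm6 genome, read 5′ to 3′ on the strand of the named gene. They are shown because they include the regions with the lowest rank percents, those of REPTOR and foxo, and most of those with CAACAA, the Aef1 repeat. The chrb sequence is that of its only region. Capitals mark CAACAA, which reads TTGTTG on the other strand, in the Pi3K21B, Tor, scyl, InR and distal foxo sequences. In the other foxo and the REPTOR sequences, which lack it, capitals mark TATAAA and AACCAA on the other strand (TTTATA and TTGGTT), the chrb sequence held no searched motif, and the InR sequence comes from a region of the ranked lists only, described further on.
Pi3K21B start, chr2L:297661-297761, plus strand: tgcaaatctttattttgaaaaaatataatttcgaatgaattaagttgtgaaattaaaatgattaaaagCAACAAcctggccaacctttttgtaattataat
Tor start, chr2L:13004226-13004326, plus strand: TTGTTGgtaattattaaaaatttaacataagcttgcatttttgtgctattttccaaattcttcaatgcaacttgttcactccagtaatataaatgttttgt
scyl upstream, chr3L:11246433-11246533, plus strand: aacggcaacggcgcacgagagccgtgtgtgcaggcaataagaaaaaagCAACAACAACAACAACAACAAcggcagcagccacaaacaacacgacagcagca
InR intron, chr3R:21618510-21618610, minus strand: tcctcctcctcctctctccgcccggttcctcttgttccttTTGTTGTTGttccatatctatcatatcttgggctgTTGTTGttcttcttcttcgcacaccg
foxo distal upstream, chr3R:14052297-14052397, plus strand: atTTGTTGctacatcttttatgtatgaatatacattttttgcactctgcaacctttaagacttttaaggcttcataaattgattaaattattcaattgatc
foxo strongest upstream, chr3R:14053541-14053641, plus strand: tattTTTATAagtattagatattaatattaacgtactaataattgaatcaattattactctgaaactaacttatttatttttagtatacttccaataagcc
REPTOR internal start, chr3R:24572605-24572705, minus strand: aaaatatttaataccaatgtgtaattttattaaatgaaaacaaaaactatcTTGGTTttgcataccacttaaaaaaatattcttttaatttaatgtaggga
chrb intron, chr3L:11491394-11491494, plus strand: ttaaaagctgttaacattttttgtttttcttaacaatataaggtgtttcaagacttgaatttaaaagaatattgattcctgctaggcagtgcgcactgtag

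InR, the insulin receptor, spans chr3R:21570248-21619321 on the minus strand and has 4 annotated starts. Its only shared region in the thresholded lists lay 8641 bp upstream of the gene, in an intron of E2f1, the cell cycle transcription factor gene that neighbours it. The authors' signal there was 89.5, 64.8 and 68.9 in replicates 1, 2 and 3, with rank percents of 37.3, 50.7 and 46.1, a mean of 44.7 ± 6.85 (SD, n = 3). Replicates 2 and 3 placed it near the middle of their lists, and replicate 1 placed it higher. A second region, 651 bp before the start that lies 29130 bp into the gene, had peaks in replicates 1 and 2 only, with signals of 66.3 and 43.7. Just inside that same start, at 79 bp, replicate 3 alone had a peak, with a signal of 42.5 and 2 copies of CAACAA near the summit. The ranked lists held peaks on both sides of this start in every replicate. Inside the start, replicates 1 and 2 had ranked-list signals of 39.2 and 40.8 at IDRs of 0.659 and 0.476. Before it, replicate 3 had a signal of 36.6 at an IDR of 0.625, and both regions were in all 4 lists of the whole series.

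The thresholded lists left out a block of InR peaks that the authors' ranked lists hold at the same threshold. At an irreproducible discovery rate (IDR) of at most 0.01, the ranked lists held 98, 111 and 109 further peaks on the arms in replicates 1, 2 and 3, between 2.73 and 3.59% of those at that IDR. Among the 10 genes they touched InR alone, with 6, 5 and 4 peaks, and none of the 6 regions they form overlapped a peak in any of the 4 lists deposited for the whole series. At the first InR start, 127 bp upstream, each replicate had such a peak, with signals of 65.2, 53.4 and 69.8 and IDRs of 0.000603, 0.000556 and 4.96e-05. A stronger peak lay 761 bp into the gene and 476 bp past its second start, with signals of 89.6, 66.2 and 83.3 in replicates 1, 2 and 3. Its summits lay within 27 bp of each other, and its window, printed above, held 3 copies of CAACAA. InR, which had no shared region at an own start in the thresholded lists, thus had 2 in the ranked lists. Counted from the ranked lists at an IDR of 0.01, 6 of the 10 genes had a shared region at an own start, against 11.5% of all genes. Why the peaks were left out is not given in the sources used here, and whether mapping differs there was not tested.

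Pi3K21B, the regulatory subunit of class I PI3-kinase, lies at chr2L:297880-305233 on the plus strand and had 1 shared region, at its start. The region had a summit 169 bp upstream of the first of its 2 starts, with signals of 115, 118 and 120 in replicates 1, 2 and 3. The ranks were 878, 613 and 533, a mean rank percent of 20.9 ± 3.69 (SD, n = 3). All 3 replicates thus placed it in the stronger part of their lists, and it held 1 copy of CAACAA, 20 bp from the summit. The other region in the window was seen in replicate 1 alone and lay at the start of the phospholipase C gene Plc21C.

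Akt, the kinase downstream of PI3-kinase, lies at chr3R:16099228-16105670 on the plus strand, and its 2 shared regions were of unlike kinds. The region at its own start had a summit 275 bp downstream of the start, within the 5′ untranslated region. Signals there were 54.6, 41.8 and 36.8 in replicates 1, 2 and 3, with ranks of 2520, 2704 and 2801. This mean rank percent of 84.6 ± 11.7 (SD, n = 3) was the lowest strength among the 15 regions and stood at place 2054 of 2081 in the series. Yet this weak region had the most copies of CAACAA of the 15, with 7, of which overlapping sets formed 4 copies of CAACAACAA. The second region lay 1420 bp upstream, in an intron of the myosin gene Mhcl, and had no CAACAA within 50 bp of its summit. Its signals were 93.9, 63.8 and 61.2, a mean rank percent of 47.3 ± 11.5 (SD, n = 3), and it was stronger than the start region in every replicate.

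foxo, the forkhead transcription factor that insulin signalling inhibits, spans chr3R:14056945-14087978 on the plus strand and had the most regions of the set. Its window was also long, at 51 kb, while scyl had 5 regions in 23.9 kb. Of the 7 foxo regions, 2 were shared, and both lay upstream of the gene rather than at a start. The nearer, 3354 bp upstream, had signals of 300, 249 and 227 in replicates 1, 2 and 3, with ranks of 138, 153 and 153. Its mean rank percent of 4.68 ± 0.653 (SD, n = 3) put it at place 139 of 2081. Its peaks were narrow, 224, 216 and 202 bp wide, where the commonest widths were 316 bp in replicate 1 and 310 bp in the others. The summit window had a GC share of 18.8%, the lowest of the 15, and no CAACAA.

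The more distal upstream region of foxo, 4598 bp before the gene, was weaker and held 1 copy of CAACAA. Signals there were 120, 98.1 and 88.9, a mean rank percent of 26.9 ± 3.54 (SD, n = 3). At the foxo start itself, 349 bp upstream, replicates 2 and 3 had peaks with signals of 48.9 and 38.4. Replicate 1 had none in its thresholded list, but its ranked list held a peak there at an IDR of 0.0125, just past the threshold. The other 4 foxo regions had peaks in 1 or 2 replicates, with 2 in introns of foxo, 1 near the start of Npc2b and 1 in an intron of CCHa1. The forkhead core GTAAACA was absent from the summit windows of all 15 shared regions, foxo's own included.

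Tor, the kinase of TORC1, lies at chr2L:13004480-13013197 on the plus strand and shares its upstream region with a neighbour. Its start and that of Vha68-1, a subunit gene of the vacuolar proton pump that acidifies lysosomes, stood 373 bp apart and pointed away from each other. The shared region lay between them, 204 bp upstream of Tor and 169 bp upstream of Vha68-1, so the peak cannot be assigned to either gene. Signals were 100, 105 and 75.7 in replicates 1, 2 and 3, with ranks of 1078, 736 and 1170, a mean rank percent of 31.4 ± 8.13 (SD, n = 3). Its copy of CAACAA was 48 bp from the summit, at the edge of the window searched. A peak in replicate 1 alone lay at the start of Ube4B, downstream of Tor.

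Thor, the Drosophila 4E-BP that binds the cap-binding factor eIF4E, lies at chr2L:3478434-3479612 on the plus strand and was the only gene of the 10 with no shared region. All 3 of its regions lay upstream. The farthest, 5991 bp away at the start of the glycosyltransferase gene Pgant4, had signals of 74.1 in replicate 1 and 60.4 in replicate 3, while replicate 2 had an IDR of 0.0545 there in its ranked list. The middle region, 2390 bp upstream, had signals of 40.7 and 65.9 in replicates 1 and 2, with rank percents of 94.8 and 49.4. The nearest, 1053 bp upstream, had a peak in replicate 1 alone with a signal of 53.7, and replicate 3 had an IDR of 0.0114 there, close to the threshold. The last 2 fell in the noncoding genes lncRNA:CR45372 and lncRNA:CR43928. Each Thor region was in all 4 lists of the whole series, while none was shared in the ranked lists at an IDR of 0.01 or 0.05. Without replicate 2 or without replicate 3, Thor had 1 shared region and all 10 genes had 1 or more, and without replicate 1 Thor had 0 and 9 genes had 1 or more.

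scyl, a REDD1-type inhibitor of TORC1, lies at chr3L:11252307-11256172 on the plus strand and had 3 shared regions, none at its start. Only 2 of the 10 genes, scyl and REPTOR, had 3 or more, against 5.86% of all genes with windows in the length range. The upstream region, 5824 bp before scyl, had signals of 52.3, 51.8 and 41.8 in replicates 1, 2 and 3, a mean rank percent of 77.3 ± 9.39 (SD, n = 3). Its summit fell on the longest run of the repeat printed above, with 6 overlapping copies of CAACAA. Downstream, 8160 bp from the start, signals were 75.5, 70.1 and 55.2, a mean rank percent of 52.4 ± 10.8 (SD, n = 3). Next to it, at 8778 bp, signals were 68.6, 43.3 and 47.2, a mean rank percent of 71.7 ± 15.4 (SD, n = 3), and neither had CAACAA near the summit. The first downstream region had rank percents of 47.5, 45 and 64.8 in replicates 1, 2 and 3, and the other 2 shared regions were above 50 in every replicate. A further 2 regions were seen in 1 or 2 replicates.

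chrb, which encodes the paralogue of scyl and also restrains TORC1, lies at chr3L:11487550-11499055 on the plus strand and had 1 region, seen in all 3 replicates. It lay in an intron, 3894 bp from the first start and 2427 bp before the second. Signals were 56.3, 69.4 and 53.1 in replicates 1, 2 and 3, a mean rank percent of 60.9 ± 13.6 (SD, n = 3). Its summits agreed to within 1 bp, the closest of the 15 regions, although the peak was weaker than most. Like scyl it had no region at a start in any replicate.

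REPTOR, the transcription factor held back by TORC1, spans chr3R:24557368-24582864 on the minus strand and had the strongest region of the set. That region lay 160 bp upstream of the start that stands 10369 bp into the gene, and not at the first of its 4 starts. Signals were 333, 256 and 251 in replicates 1, 2 and 3, with ranks of 115, 140 and 111. Its mean rank percent of 3.85 ± 0.598 (SD, n = 3) put it at place 120 of 2081. Its peaks were 228, 197 and 191 bp wide, its GC share was 19.8%, and it held no CAACAA but 1 copy of AACCAA, a permuted control.

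Inside REPTOR, 4395 bp past its nearest start, a second region had signals of 140, 106 and 128 and a mean rank percent of 18.9 ± 3.97 (SD, n = 3). Its peaks were only 117, 78 and 112 bp wide, and the summits lay within 2 bp of each other. The third shared region lay 25754 bp from the first start, just downstream of the gene, with signals of 66.2, 56.1 and 43.7 and a mean rank percent of 67.6 ± 14 (SD, n = 3). An intronic peak with 1 copy of CAACAA was seen in replicate 3 alone. REPTOR thus had both strong narrow shared regions and a weak distal one, all without CAACAA within 50 bp of the summit. The narrow form, with a peak under the commonest width in every replicate, was seen in 3 of the 15 regions, against 21% of all shared regions.

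Sik3, a salt-inducible kinase that Akt regulates in Drosophila, lies at chr2R:18688132-18705805 on the plus strand and had its shared region just past its 3 starts. The summit was 142 bp past the nearest of them and 632 bp from the first. Signals were 114, 99 and 67.3 in replicates 1, 2 and 3, with rank percents of 25.2, 26.5 and 48.1. The mean rank percent was 33.2 ± 12.9 (SD, n = 3), and replicate 3 was the weakest. Its GC share of 51.5%, equal to that of the upstream scyl region, was the highest of the 15, and no CAACAA lay within 50 bp of the summit. A region inside the gene had peaks in replicates 1 and 2, with signals of 62.6 and 70.9, and an IDR of 0.037 in replicate 3.

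**Figure D2:**
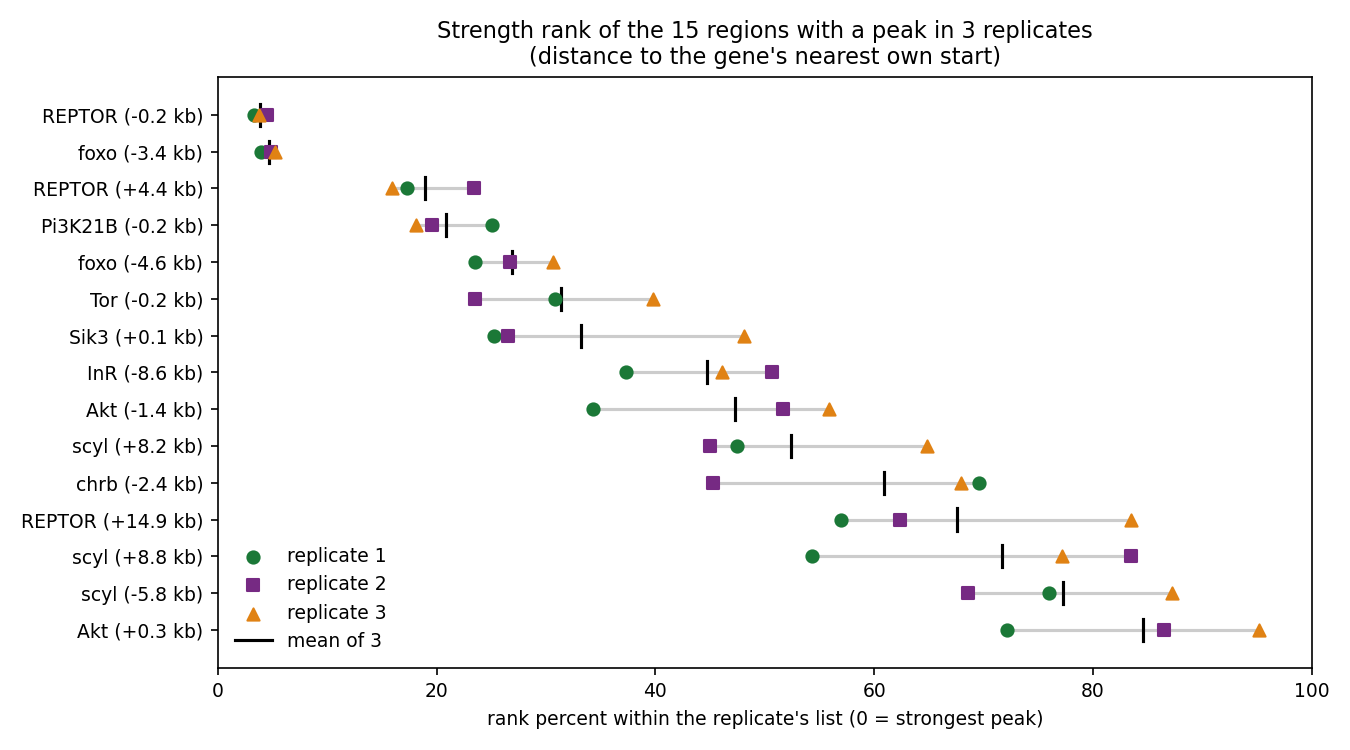
Each row is 1 of the 15 shared regions, labelled by gene and by the distance of its summit from the nearest own start, and the horizontal axis is the rank percent, with the strongest peaks at the left. Symbols are the 3 replicates and the black bar is their mean. The REPTOR region at 3.85 and the foxo region at 4.68 stand apart at the left in all 3 replicates, while weaker regions spread more widely between replicates.

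Across the 15 shared regions the mean rank percent had a median of 44.7, with a range of 3.85 to 84.6, and all shared regions had a median of 35.8. Mean rank percents of at most 10 were found for 2 of the 15, the REPTOR and foxo regions, against 14.2% of all shared regions, so the share of strong regions was near that of the series. The median over the 15 was 34.3, 45 and 48.1 in replicates 1, 2 and 3. Their summits differed between replicates by a median of 21 bp, with a range of 1 to 64 bp, against a median of 28 bp over all shared regions. All 15 were found in each of the 4 lists of the whole series, which were made from the same 3 replicates and are no independent check. Of the 16 regions seen in 1 or 2 replicates, 12 were in all 4 of those lists, and 14 had an overlapping ranked-list peak in every replicate.

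CAACAA, on either strand within 50 bp of the summit, was found in 5 of the 15 shared regions, 33.3% with an exact 95% interval of 11.8 to 61.6%, against 17.7% of all 2081. The interval of the 15 includes the share of all. These were the regions of Pi3K21B, Tor and Akt at starts and the upstream regions of foxo and scyl. The foxo copy, at -46 bp from the summit, lay near the edge of the window, as did that of Tor. The share of the 15 was 20% within 25 bp of the summit, 40% within 100 bp and 53.3% anywhere in the region. The share of all shared regions was not computed for those settings. The tandem form CAACAACAA, each copy of which contains overlapping copies of CAACAA, was found in 2, those of Akt and scyl, against 5.05%. The permuted control AACCAA was found in 1 against 7.69%, and the control CAAACA in 1 against 11.2%. The TATA box TATAAA was found in 4 against 22.5%.

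GTAAACA, TATCGATA (the DNA replication-related element), CACGTG (the E-box) and GAGAGAG (the GAGA factor motif) were found in 0 of the 15, with an exact 95% interval of 0 to 21.8% for each. All shared regions held them at 2.21%, 1.54%, 0.769% and 1.25%, so few or none would be seen among 15 at those shares. Matches describe letters only and are no evidence of a site in use.

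More copies of the repeat did not come with a stronger peak among these regions. The 5 with CAACAA had a median mean rank percent of 31.4, and the 10 without it had 46. Yet the Akt and scyl regions, with 7 and 6 copies, had 84.6 and 77.3, among the weakest of the 15. The 5 other shared regions of the series with 6 or more copies had a median of 50.1, and the 1 with most copies, 11, had 20.7. All shared regions with CAACAA had a median of 40.6, so no such order is claimed beyond these genes. The GC share of the 15 had a median of 25.7% and a range of 18.8 to 51.5%, against 31.7% over all shared regions and 28.7% over those with a mean rank percent of at most 10. The part of base composition and of the repeat in these ranks was not tested.

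**Figure D3:**
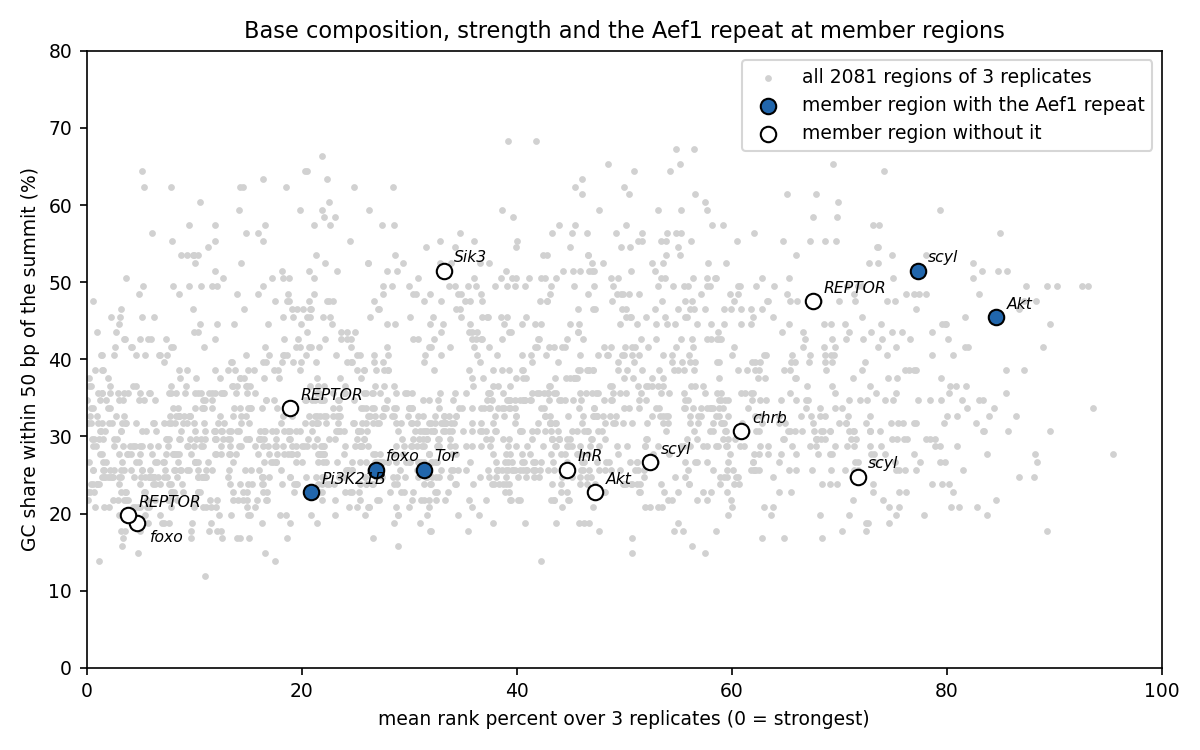
The horizontal axis is the mean rank percent over 3 replicates and the vertical axis is the GC share within 50 bp of the summit, with the 15 regions of the pathway genes as large circles and all 2081 shared regions as grey points. Filled circles have CAACAA. The strongest REPTOR and foxo regions lie at 19.8 and 18.8% GC without the repeat, while the scyl and Akt regions with most copies lie at the weak end.

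Among other genes of the pathway, the share with a shared region at a start was near that of all genes. A list of 60 further genes, 19 of insulin signalling, 24 of the TOR pathway and 17 downstream, was matched in full to the annotation. A shared region at an own start was found for 6 of them, 10% with an exact 95% interval of 3.76 to 20.5%, near the 11.3% of all genes. By side these were 1 of 19, 3 of 24 and 2 of 17. In the window, 33 of the 60 had a shared region, 55% against 42.4% of all genes, and 17 had a region of any replicate at an own start, 28.3% against 19.6%. Without replicate 2 the count at own starts was 10 instead of 6.

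Of those 6, the strongest was the region of Sesn, the sestrin that dampens TORC1, with a mean rank percent of 1.46 ± 0.461 (SD, n = 3). TBC1D7, in mammals a partner of the TSC complex, had 5.29 ± 1.2, and Wdr24, a subunit of the GATOR2 complex that relieves inhibition of TORC1, had 5.58 ± 1.15. The glycogen synthase kinase sgg had 10.4 ± 1.45. SNF4Agamma, the gamma subunit of AMPK, had 42.6 ± 2.6 and was the only one of the 6 with CAACAA near its summit. Lkb1, the kinase upstream of AMPK, had 64.8 ± 26.9, so its rank differed widely between replicates. For 4 of the 6, Sesn, TBC1D7, Wdr24 and Lkb1, the summit also lay within 500 bp of a start of another gene, CG46429, Myo95E, IntS11 and CG9588 in that order.

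Ligands of InR are encoded among the insulin-like peptide genes, and the genes counted here are not all taken to encode InR ligands. None of the 8 insulin-like peptide genes Ilp1 to Ilp8 had a region at an own start in any replicate, against 19.6% of all genes, a share at which few would be seen among 8. Of the same 8 genes, Ilp7 alone had a shared region in its window, against 42.4% of all genes. Ilp1 to Ilp5 lie close together on chr3L, between 9798420 and 9823897. The windows of neighbours overlap there, so the 8 are not separate loci. ImpL2, which encodes a secreted protein that binds insulin-like peptides, had 4 shared regions in its window but none at a start. raptor, the substrate-binding subunit of TORC1, had 3 in its window, TBC1D7 had 3 and Sesn had 5. These 4 were the genes of the 60 with 3 or more, and were named after their values were seen. They made up 6.67% of the 60, against 5.86% of all genes with windows in the length range of the 10. The 60 were not limited to that range.

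**Figure D4:**
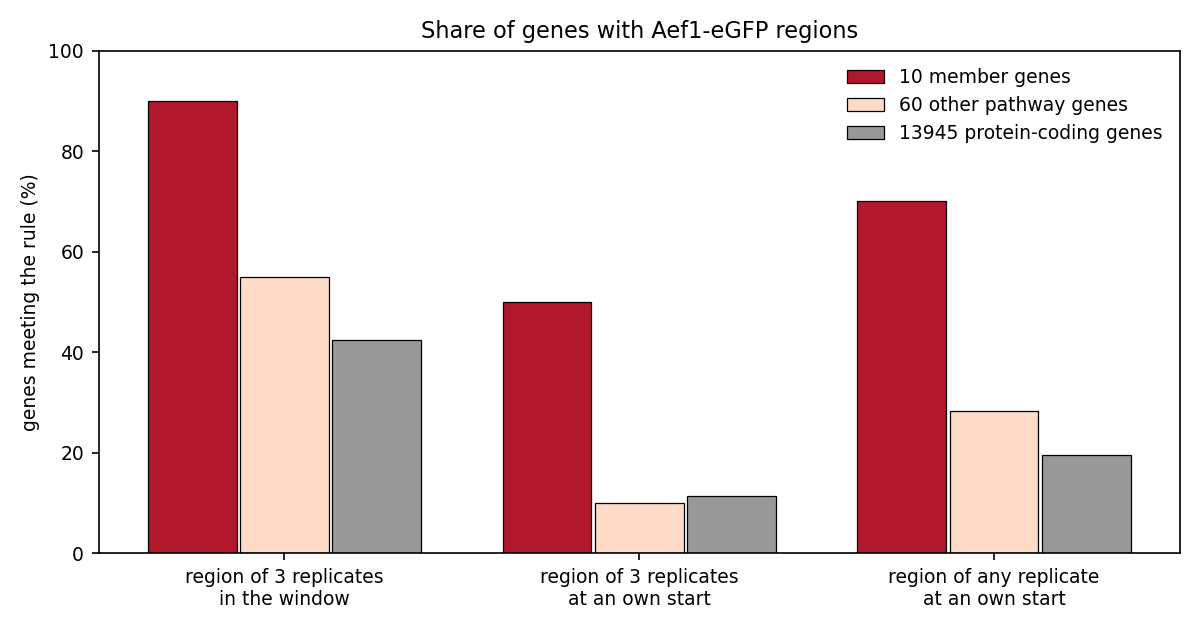
Bars give the percent of genes that met each of 3 rules, with the 10 genes described here, the 60 other pathway genes and all 13945 protein-coding genes side by side. At own starts with 3 replicates the bars stand at 50, 10 and 11.3%, and no error is drawn because each bar is a count of genes and not a mean over replicates.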

How the data were processed

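Members and gene lists were chosen with earlier results of these data known. The authors deposited, per replicate, a ranked and a thresholded peak list on dm6, per the file headers and labels. No source used here names the aligner or peak caller. Per the authors' own listing, each thresholded list had 1 input more than the ranked list, of unstated role. In the deposited lists, column 7 is the authors' signal, the score runs from 830 to 1000, and the ranked lists give the IDR as −log10. No reads were analysed, so depth is unknown and intervals cover counting error only.

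Genes were Ensembl release 115 protein-coding genes (BDGP 6.54, dm6 coordinates), with 19607 starts. RefSeq's dm6 genome gave the sequences. Each replicate's strongest peak gave a summit, and their median was used for the region. Its rank percent is the mean of 100 times rank over list length. Motifs were counted on both strands with overlaps. Whether the biological replicates came from separate collections is not stated beyond their number.

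Named were all 10 genes, each shared region at a start or inside, the strongest other shared region, promoter neighbours, and the pathway genes with a shared region at a start. Other named regions, the sequences of the scyl upstream, InR intron and distal foxo regions, ImpL2, raptor and Ilp7, and the cut of 6 repeat copies were chosen after their values were seen. Sequences were planned only for shared regions at a start or inside a gene. The stronger foxo upstream sequence was thus also an addition. Alternatives changed overlap, IDR, window, promoter width, motif window and replicates. The ranked lists at an IDR of 0.01 were added after seeing the data. Scripts were tested on simulated data. Scripts ran in Python 3.11.15 with SciPy 1.17.1, pandas 2.3.3, matplotlib 3.10.9 and numpy 2.4.6.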

Additional observations from a re-analysis of the deposited data

How the results depend on the processing

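No paired analysis was possible because the study has 1 group. Of 86 recomputed summary values, 66 stayed within 1.5 times the reported count or within the replicate spread or interval, and 20 did not. Shared regions in the 10 windows numbered 31 with a peak in any 1 replicate, 31, 31, 30 and 33 in the 4 lists of the whole series, and 6 within gene spans alone, where 5 genes had a region. Peaks per replicate averaged 8.33 within gene spans, 20 with 5 kb flanks, and 18.7, 28.7 and 34.3 in the ranked lists at IDRs of 0.001, 0.01 and 0.05. The other pathway genes with a region at an own start numbered 17 with a peak in any 1 replicate, 17, 16, 18 and 16 in the 4 lists, and 10 with a promoter of 1000 bp. Leaving out each replicate gave 7 to 10. The median rank percent was 3.76 within the longer ranked lists, whose length sets the scale. A region at an own start was present under all 14 alternatives for Pi3K21B, Tor and REPTOR, under 13 for Sik3, 12 for Akt, 8 for InR, 5 for foxo, 1 for Thor and 0 for scyl and chrb. The InR count joins different sites. The left-out regions near its first and second starts were shared in the ranked lists but were in none of the 4 lists. Those 4 lists held the region just inside the start 29130 bp into the gene. Each of the 4 gave InR 2 regions at own starts, and the place of the other was not examined. Shares of all genes were recomputed only for a peak in any 1 replicate and, at own starts, for the ranked lists at an IDR of 0.01. The cause of the other differences was not tested.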
